A study of Mus musculus with 6 samples.

Results

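Target genes of the transcription factor p53, together with genes of the Bcl2 family, caspases and their regulators, were examined in RFC1-/- and RFC1+/+ mouse embryos. The 40 genes of this group were chosen by function, with earlier results of these data known. A gene was counted as measured where the annotation used here gives a probe set its symbol alone. On that basis 37 of the 40 genes were measured, by 93 of the 34958 probe sets that carry 1 symbol, and Trp53, Bax and Gdf15 were not analysed here. Whole embryos at embryonic day 9.5 were profiled on Affymetrix arrays, 1 embryo per array, as 3 littermate pairs of 1 RFC1-/- and 1 RFC1+/+ embryo. The RFC1 allele, of the mouse gene Slc19a1, was inactivated by targeting and carried on the inbred SWV background, and all dams, which were RFC1+/-, received 25 mg/kg folic acid daily from day 0.5 of gestation, so that both groups were exposed to it. The RFC1-/- embryos were labelled as having craniorachischisis, an open neural tube along the head and spine, with no fusion of the chorion and allantois, whereas their RFC1+/+ littermates were labelled normal. Since inactivation is in the whole embryo, and RFC1-/- embryos differ from their littermates in form, fewer cells of a type and less RNA per cell cannot be told apart in these values.

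The p53 protein is a transcription factor that accumulates when DNA is damaged, when nucleotides run short or when ribosome assembly fails. Its targets halt the cell cycle, repair DNA or start apoptosis, and one of them, Mdm2, marks p53 for destruction and so closes a feedback loop. In the mitochondrial route of apoptosis, death-promoting members of the Bcl2 family overcome the death-restraining ones, cytochrome c leaves the mitochondrion and joins Apaf1, and Casp9 and then the effector caspases are activated. Folate carries the one-carbon units used to make thymidylate and purines, and neural tissue of the embryo is known to respond to p53 activation with cell death.

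Expression values were deposited on the log2 scale, and every difference below is RFC1-/- minus RFC1+/+ within a litter, so that 1 unit is a doubling. Differences were tested with limma over 18194 genes, using the brightest probe set of each and the litter as a block, and a gene was called where its p, adjusted over all genes, was under 0.05. The medians of the 6 arrays lay between 5.43 and 5.49. Slc19a1 itself, on its brightest probe set, lay between 8.89 and 9.11 in RFC1+/+ embryos and between 9.84 and 10.10 in RFC1-/- embryos. The sources used here do not say which part of the gene the allele lacks, so that this probe set does not check the genotypes. Markers of other tissues moved with genotype on these arrays. All 12 measured genes typical of visceral endoderm, which lines the yolk sac, were called higher, and their summed level ran from 11.20 to 12.65 (log2) in RFC1+/+ embryos and from 14.51 to 15.93 in RFC1-/- embryos. Of the genes typical of primitive red cells 8 of 11 were called lower, with summed levels from 14.81 to 15.35 and from 10.09 to 12.19 in the same order. Of those typical of neural progenitors 10 of 12 were called lower, with summed levels from 12.88 to 13.02 and from 11.35 to 12.21. Of 12 typical of epithelium 6 were called higher and 2 lower, with summed levels from 12.48 to 12.95 and from 13.52 to 13.79. Among all genes 3.67% were called higher and 1.65% lower. The visceral endoderm list holds Apoa1, Cubn, Apom, Ttr, Rbp4 and Dab2, which the study reports as raised on these same arrays. The count for that list is therefore not independent of these data. The part of these tissues in the differences below was not tested.

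Cdkn1a, Ccng1 and Eda2r were higher in RFC1-/- embryos and Casp2 was lower, while the other 33 measured genes did not pass. All 3 genes that rose are p53 targets. Of the 20 measured p53 targets, 15.0% were called higher, and among all genes 3.67% were called higher and 1.65% were called lower. Without Cdkn1a, which the study had itself selected on these samples, 10.5% of the other 19 were called higher. These targets were listed with earlier results of these data known, so their share is not independent of the data. No p53 target passed as lower in limma. At an unadjusted p under 0.05, 7 of the 20 were higher and 1 lower, and among all genes 10.4% were higher and 8.05% lower. Of the 17 other genes of apoptosis, Casp2 alone was called, with 1 higher and 1 lower at an unadjusted p under 0.05. The median difference was 0.22 for the p53 targets and -0.0093 for the other apoptosis genes, beside -0.015 for all genes. A separate list of 29 further p53 targets, described last, had a median of 0.00099, with 15 above 0 and 14 below, and 3.45% called in each direction. Of the first 20 p53 targets 15 lay above 0, and of the other apoptosis genes 8 of 17, beside 46.0% of all genes. The RFC1-/- embryo lay above its littermate in all 3 litters for 15 of the 37 genes and below it for 7, and among all genes these shares were 18.4% and 20.6%. All RFC1-/- values lay above all RFC1+/+ values for 9 of the 37 genes, beside 12.8% of all genes, and below them for 2, beside 13.4%. Genes with a mean level under 5 were 2 of the 37 but 5492 of all 18194. Of the 12702 genes at 5 or more, 5.04% were called higher and 2.23% lower, beside 8.57% and 2.86% of 35 members. The groups did not overlap for 2060 of these 12702 on the higher side and 1964 on the lower, and for 8 and 2 of the 35.

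**Figure D1:**
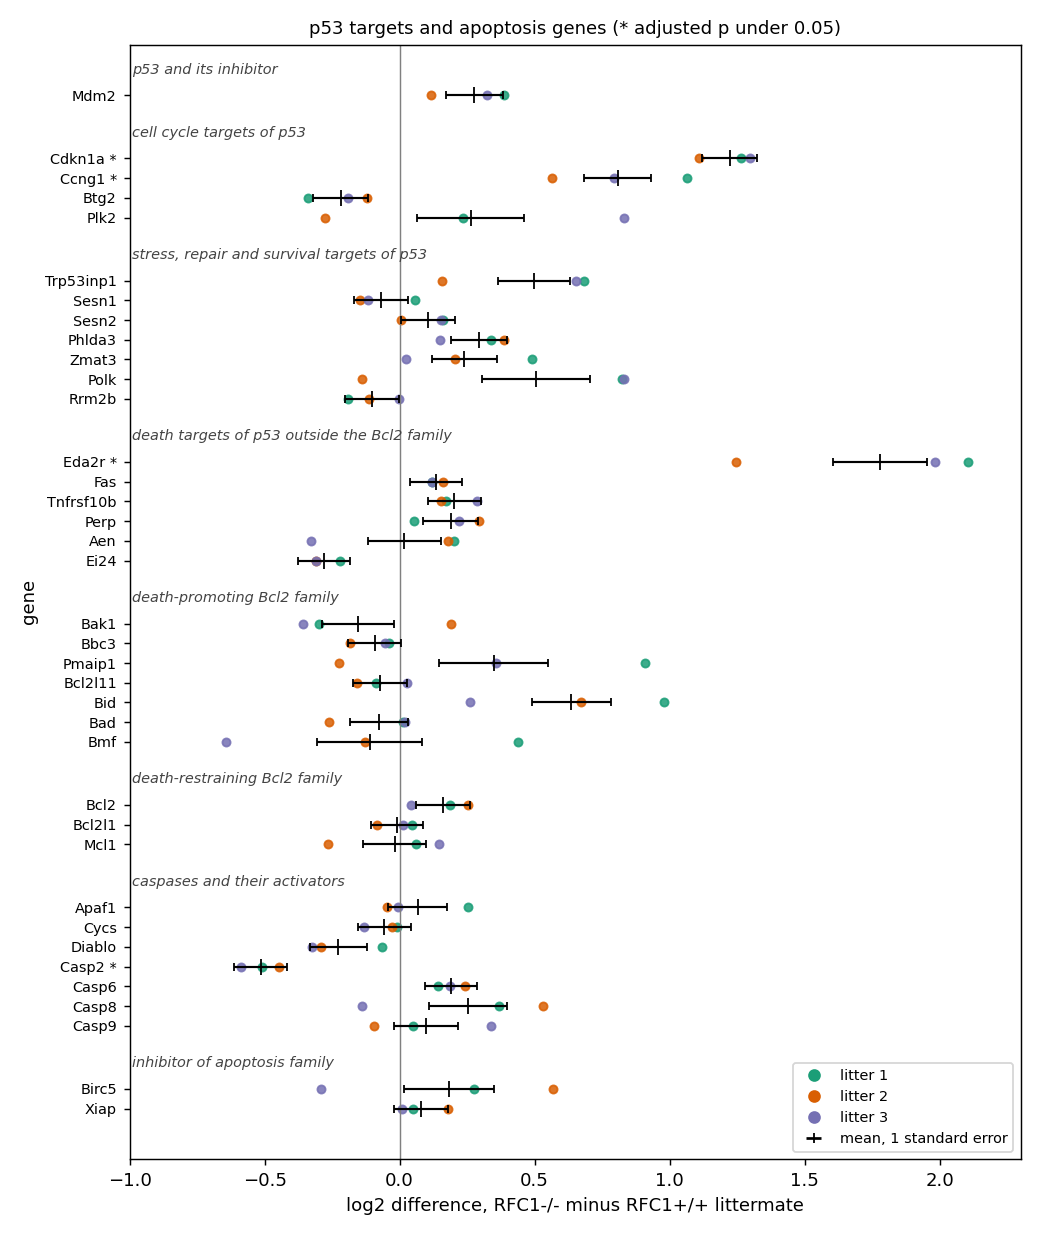
Log2 difference between the RFC1-/- embryo and its RFC1+/+ littermate (x axis) for the 37 measured genes (y axis), grouped by role. Coloured points are the 3 litters, black marks show the limma mean and its SE, and asterisks mark the 4 genes past an adjusted p of 0.05, of which Eda2r, Cdkn1a and Ccng1 lie at 1.78, 1.22 and 0.81 and Casp2 at -0.51.

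The promoters of the 3 genes that rose, with that of Mdm2, are shown because p53 acts through a known DNA motif of 10 bases. This motif runs purine, purine, purine, C, a pair of bases that are each A or T, G, pyrimidine, pyrimidine, pyrimidine, and it reads the same on both strands. The sequences are from RefSeq (build GRCm38.p6) and cover the 200 bases before the start of the transcript, 5′ to 3′, with exact matches to the motif in capitals. For Cdkn1a the more upstream of its 2 listed starts was taken, which lies 2790 bases before the other.
Cdkn1a: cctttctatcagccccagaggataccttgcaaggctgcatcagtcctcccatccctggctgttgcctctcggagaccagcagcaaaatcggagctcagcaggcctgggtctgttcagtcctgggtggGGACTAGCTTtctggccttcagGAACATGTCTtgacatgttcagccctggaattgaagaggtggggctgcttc
Ccng1: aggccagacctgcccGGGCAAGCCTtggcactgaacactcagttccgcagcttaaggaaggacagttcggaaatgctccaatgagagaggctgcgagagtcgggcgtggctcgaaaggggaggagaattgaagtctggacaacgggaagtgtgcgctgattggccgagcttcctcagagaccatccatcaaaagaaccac
Eda2r: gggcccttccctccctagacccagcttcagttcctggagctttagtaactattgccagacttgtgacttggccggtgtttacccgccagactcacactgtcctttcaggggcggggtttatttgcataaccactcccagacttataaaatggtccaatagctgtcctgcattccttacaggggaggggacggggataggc
Mdm2: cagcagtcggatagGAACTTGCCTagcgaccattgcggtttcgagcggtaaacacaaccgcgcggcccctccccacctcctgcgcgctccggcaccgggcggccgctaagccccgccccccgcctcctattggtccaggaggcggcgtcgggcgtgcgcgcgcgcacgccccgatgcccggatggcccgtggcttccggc
The Cdkn1a stretch is chr17:29090779-29090978 on the plus strand, and that of Ccng1 is chr11:40755287-40755486 on the minus strand. Those of Eda2r and Mdm2 are chrX:97377210-97377409 on the minus strand, and chr10:117710759-117710958 on the minus strand. Cdkn1a held the motif at 2 places, with 12 bases between them, and Ccng1 and Mdm2 held it at 1 place each. Next to the second match in Cdkn1a, GAACATGTCT, the following 10 bases, TGACATGTTC, differ from the motif at 1 position. Next to the match in Ccng1, GGGCAAGCCT, the preceding 10 bases, AGACCTGCCC, likewise differ at 1 position. An exact match directly beside such a near match was present in 29 of 32851 promoter windows of 300 bases (0.0883%). Among the 49 windows of 34 of the 40 genes, only that of Ccng1 and the upstream window of Cdkn1a held such a pair. The window at the other start of Cdkn1a held no exact match. The search for such pairs was set up after the sequences had been seen. A single exact match was more common, in 8.36% of all windows and in 24.5% (12) of the 49, which belonged to 11 genes. The 12 include overlapping windows of Aen that share 1 match. The 49 windows also differed from all windows in the other sequences given next, and the part of base composition was not tested. The window of Eda2r held no exact match, and it held the sequences TATAAA and GGGCGG, which 8.32% and 35.7% of all windows contain. A match in these letters is a description of the window, and binding was not measured.

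Among the p53 targets that act on the cell cycle, Cdkn1a and Ccng1 rose and Btg2 and Plk2 did not pass. Cdkn1a encodes p21, an inhibitor of cyclin-dependent kinases that holds cells in G1. Its log2 level was 7.81, 7.26 and 7.60 in RFC1+/+ embryos and 9.07, 8.37 and 8.90 in RFC1-/- embryos, each in the order of litters 1, 2 and 3, which is kept below. Each RFC1-/- embryo lay above every RFC1+/+ embryo. The difference was 1.22 (SE, the standard error, 0.10, limma adjusted p = 0.00417), a 2.33-fold rise, with 1.26, 1.11 and 1.30 in the 3 litters. The study lists Cdkn1a among the genes it selected on these samples, so its rise here is not independent of that choice.

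Among these 20 measured p53 targets, Cdkn1a had the second largest difference, after Eda2r, in each litter. The median of the other 19 was 0.20, and in litters 1, 2 and 3 it was 0.20, 0.12 and 0.15. Over all 18194 genes, Cdkn1a ranked 167 from the highest difference.

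Ccng1 encodes cyclin G1, which recruits a phosphatase to Mdm2 and is a long-known p53 target. Its level was 10.24, 10.21 and 10.45 in the RFC1+/+ embryos, and 11.31, 10.77 and 11.24 in the RFC1-/- embryos of the same litters. The groups did not overlap, and litter 2 had the smallest difference. The mean difference was 0.81 (SE 0.12, limma adjusted p = 0.0174), a 1.75-fold rise. This call ended without litter 1, where the difference was 0.68 (limma adjusted p = 0.0920).

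Plk2, a kinase of centriole duplication, differed by 0.24, -0.28 and 0.83 in litters 1, 2 and 3, so that the litters did not share a direction. Btg2, an antiproliferative gene of cells about to differentiate, lay below its littermate in all 3 litters, by 0.34, 0.12 and 0.19, with a mean difference of -0.22 (SE 0.10, limma adjusted p = 0.327). Its other probe set differed by 0.07.

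**Figure D2:**
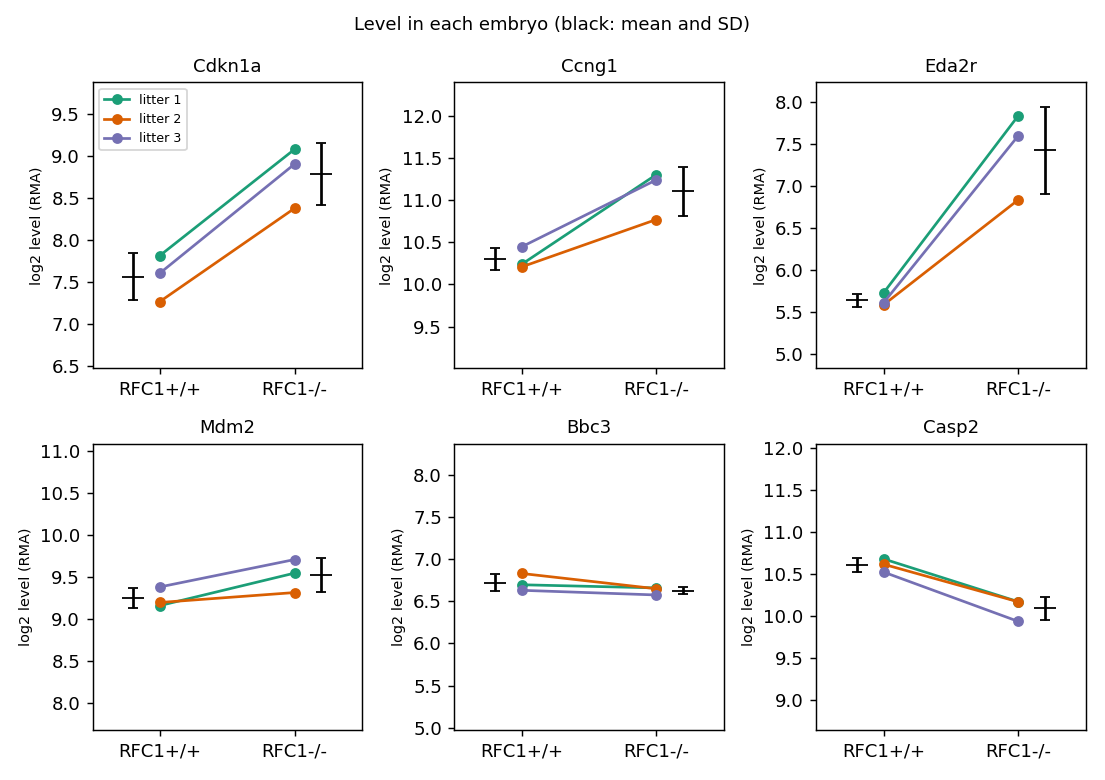
Log2 level in each embryo (y axis, every panel spanning the same range) by genotype (x axis) for Cdkn1a, Ccng1, Eda2r, Mdm2, Bbc3 and Casp2. Coloured lines join littermates and black marks are the mean and SD of each group of 3 embryos. The RFC1-/- embryos lie apart from the RFC1+/+ embryos for Cdkn1a, Ccng1 and Eda2r (above) and Casp2 (below), and overlap with them for Mdm2 and Bbc3.

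Mdm2, the ubiquitin ligase that p53 induces against itself, did not pass. Its level was 9.16, 9.20 and 9.39 in RFC1+/+ embryos and 9.55, 9.32 and 9.71 in RFC1-/- embryos. Each RFC1-/- embryo lay above its own littermate, yet the groups overlapped. The difference was 0.28 (SE 0.11, limma adjusted p = 0.218), with a 95% interval from 0.03 to 0.53 before adjustment. The 2 dimmer probe sets of Mdm2 differed by -0.01 and 0.10.

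The p53 targets of stress handling, repair and survival did not pass in limma. At an unadjusted p under 0.05, 3 of 7 were higher and none lower, beside 10.4% and 8.05% of all genes. Trp53inp1, which feeds back on p53 and promotes autophagy, came nearest. It measured 10.06, 9.89 and 9.95 in RFC1+/+ embryos, and 10.74, 10.04 and 10.60 in RFC1-/- embryos. Litter 2 stood apart with a difference of 0.16, where the others showed 0.68 and 0.65. The mean was 0.50 (SE 0.13, limma adjusted p = 0.0900, and 0.443, 0.0452 and 0.158 without litters 1, 2 and 3). A dimmer probe set of Trp53inp1 differed by -0.20.

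Polk, a DNA polymerase that copies past damaged bases, showed the same contrast between litters. Its differences were 0.82, -0.14 and 0.83 in litters 1, 2 and 3, and its mean was 0.50 (SE 0.20, limma adjusted p = 0.236). Without litters 1, 2 and 3 in turn the mean was 0.35, 0.83 and 0.34 (limma adjusted p = 0.721, 0.0216 and 0.421). In litter 2 the RFC1-/- embryo was the lower one. A dimmer probe set of Polk differed by 0.03. Phlda3, which restrains Akt, was 0.29 higher (SE 0.10, limma adjusted p = 0.184) in non-overlapping groups. Zmat3, an RNA-binding protein, differed by 0.49, 0.20 and 0.02. The sestrins Sesn1 and Sesn2, which restrain mTORC1 under stress, differed by -0.07 and 0.11, and Rrm2b, the p53-induced subunit of ribonucleotide reductase that supplies nucleotides for repair, by -0.10. The 95% interval for Rrm2b, before adjustment, ran from -0.34 to 0.14.

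Eda2r showed the largest difference of all 37 genes. It encodes a receptor of the tumour necrosis factor family for the A2 form of ectodysplasin. Its level was 5.73, 5.58 and 5.61 in RFC1+/+ embryos, and 7.83, 6.83 and 7.59 in RFC1-/- embryos. The RFC1+/+ values spanned a narrow range, and every RFC1-/- value lay above it. The difference was 1.78 (SE 0.17, limma adjusted p = 0.00602), a 3.43-fold rise, with 2.10, 1.25 and 1.98 in the 3 litters.

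Eda2r lies on the X chromosome, and sex-linked transcripts differed within 2 of the 3 pairs. In litter 1 Xist, the RNA of the inactive X, was 6.10 in the RFC1+/+ embryo and 5.37 in the RFC1-/- embryo, and the Y-linked gene Eif2s3y was 9.61 and 9.83. Xist was 11.90 and 5.25 in litter 2 and 5.59 and 11.92 in litter 3, in the same order, so that these pairs differed in opposite directions. The Eda2r difference was above 1 in all 3 litters, and was 2.10 in litter 1, where both embryos had low Xist. The part of sex in the Eda2r difference was not tested.

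The other death targets of p53 outside the Bcl2 family did not pass. Fas and Tnfrsf10b, both death receptors at the cell surface, had mean levels of 4.37 and 5.01 and differed by 0.13 and 0.20. Perp, a protein of desmosomes in surface epithelium, differed by 0.19 (SE 0.10, limma adjusted p = 0.412). For all 3 of these genes the RFC1-/- values lay above the RFC1+/+ values on the brightest probe set, without passing, beside 12.8% of all genes. The dimmer probe set of Tnfrsf10b differed by 0.17, and its groups overlapped. Aen, a nuclease, differed by 0.20, 0.18 and -0.33 in litters 1, 2 and 3. Ei24, a membrane protein of the endoplasmic reticulum, lay on the lower side, at 10.98, 11.09 and 11.07 in RFC1+/+ embryos and 10.76, 10.78 and 10.76 in RFC1-/- embryos. Its groups did not overlap, and the difference was -0.28 (SE 0.10, limma adjusted p = 0.177).

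Of the death-promoting Bcl2 genes through which p53 acts, Bbc3 and Pmaip1 did not pass, and Bax was not analysed here. Bbc3, which encodes PUMA, measured 6.70, 6.83 and 6.63 in RFC1+/+ embryos, and 6.66, 6.65 and 6.58 in RFC1-/- embryos. The groups overlapped, and the difference was -0.09 (SE 0.10, limma adjusted p = 0.729), with a 95% interval from -0.33 to 0.14 before adjustment. Pmaip1, which encodes NOXA, varied between litters, with differences of 0.91, -0.22 and 0.36 (limma adjusted p = 0.444). Its SD was 0.37 among RFC1+/+ embryos and 0.88 among RFC1-/- embryos.

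Among the other death promoters, Bid, which links death receptors to the mitochondrion, had the largest difference. It measured 6.72, 7.11 and 7.41 in RFC1+/+ embryos and 7.70, 7.78 and 7.67 in RFC1-/- embryos. All RFC1-/- values lay above the RFC1+/+ values, and the SD was 0.35 among RFC1+/+ embryos and 0.06 among RFC1-/- embryos. The mean difference was 0.64 (SE 0.15, limma adjusted p = 0.0612, and 0.310, 0.158 and 0.00951 without litters 1, 2 and 3). The dimmer probe sets of Bid differed by 0.18 and 0.06. Bak1, a pore-forming effector, Bcl2l11, which encodes BIM, Bad and Bmf differed by -0.15, -0.07, -0.08 and -0.11, and each overlapped between the groups. Bmf ran from 0.44 in litter 1 to -0.64 in litter 3.

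The death-restraining genes Bcl2, Bcl2l1 and Mcl1 differed by 0.16, -0.01 and -0.02 on their brightest probe sets (limma adjusted p = 0.492, 0.982 and 0.971). Bcl2l1 encodes BCL-XL, and its 95% interval before adjustment ran from -0.24 to 0.22. A second probe set of Bcl2, at a mean of 7.07, was 6.85, 6.91 and 6.70 in RFC1+/+ embryos and 7.30, 7.53 and 7.15 in RFC1-/- embryos. It was 0.51 higher without overlap (limma adjusted p = 0.0495 over all probe sets), while the other 4 probe sets of Bcl2 differed by between 0.02 and 0.16.

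Casp2 was the only one of the 37 genes called lower. It encodes an initiator caspase that a complex with Pidd1 activates after DNA damage or failed cell division. Its level was 10.68, 10.61 and 10.52 in RFC1+/+ embryos and 10.17, 10.17 and 9.93 in RFC1-/- embryos. The groups did not overlap, and the litters lay close together with differences of -0.51, -0.45 and -0.59. The mean difference was -0.51 (SE 0.10, limma adjusted p = 0.0335), a level 1.43-fold lower, and the call ended without litter 1 (limma adjusted p = 0.195) and without litter 2 (limma adjusted p = 0.0866).

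The other caspases and their activators did not pass. Apaf1, the scaffold of the apoptosome, differed by 0.07, and Cycs, which encodes cytochrome c, by -0.06. Diablo, which releases caspases from their inhibitors, differed by -0.23 (SE 0.11, limma adjusted p = 0.321). Casp6, an effector caspase, differed by 0.14, 0.24 and 0.19 in the 3 litters, Casp8, the initiator at death receptors, by 0.37, 0.53 and -0.14, and Casp9, the initiator at the apoptosome, by 0.05, -0.10 and 0.34. A dimmer probe set of Casp9, at a mean of 6.19, differed by -0.45 without overlap (limma adjusted p = 0.0875 over all probe sets). Of the inhibitors of apoptosis, Xiap, which binds caspases directly, differed by 0.08, and Birc5, survivin of the mitotic spindle, by 0.28, 0.57 and -0.29. Mitosis genes, among which Birc5 is commonly placed, did not pass either. The 13 measured had differences between -0.24 and 0.12, with 2 above 0 and 11 below. None passed in limma, beside 3.67% of all genes called higher and 1.65% lower. None had an unadjusted p under 0.05, beside 10.4% of all genes higher and 8.05% lower.

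**Figure D3:**
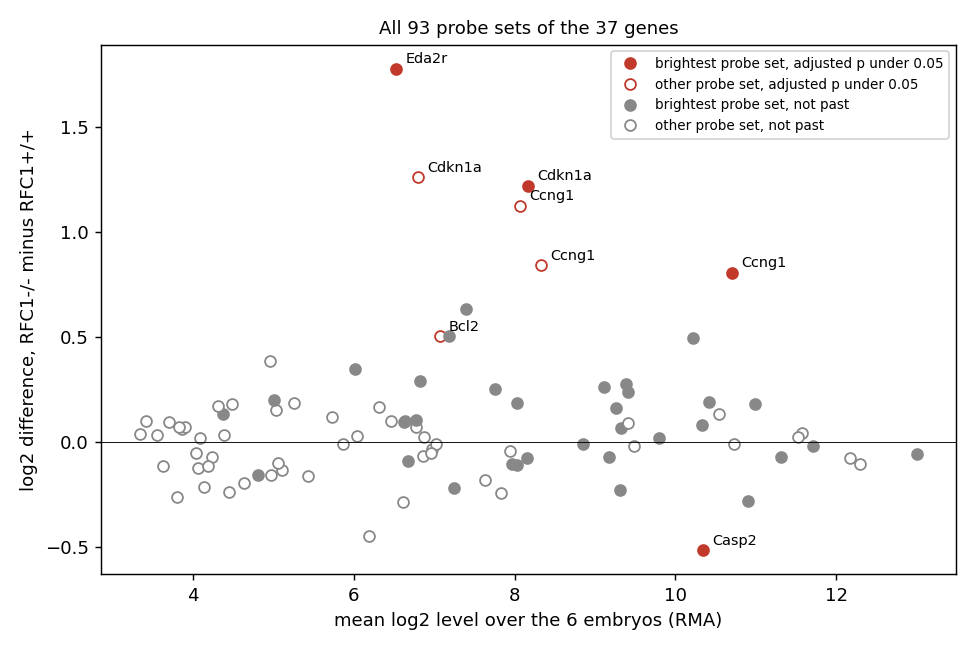
Log2 difference (y axis) against mean log2 level over the 6 embryos (x axis) for all 93 probe sets of the 37 genes, with filled points for the brightest probe set of a gene and open points for its others. Red points pass an adjusted p of 0.05 in limma over all probe sets, and comprise every probe set of Cdkn1a, Ccng1 and Eda2r, the probe set of Casp2 and 1 of 5 of Bcl2.

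Probe sets of a gene were compared where more than 1 was present. Both probe sets of Cdkn1a rose, by 1.22 and 1.26, and all 3 of Ccng1, by 0.81, 0.84 and 1.13. Eda2r and Casp2 each had 1 probe set with a symbol of its own. Of the 93 probe sets, 7 were called higher and 1 lower in limma over all probe sets, where 1.87% of all were called higher and 0.882% lower. The 85 others lay between -0.45 and 0.64. The 1.5-fold variation filter in the methods kept 2982 probe sets, among which 14 belonged to 10 of these genes. Among those 14, the probe set of Eda2r alone passed the 0.001 level of the methods after adjustment over the filtered probe sets in limma (adjusted p = 0.000103), beside 174 of the 2982 (5.84%) in all. The Cdkn1a probe sets had limma adjusted p = 0.0118 and 0.0154 there. The study used another test, a random-variance paired t-test, which passed more probe sets at the 0.001 level than limma did here. It lists Cdkn1a among its selected genes, so these limma values do not repeat its selection.

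**Figure D4:**
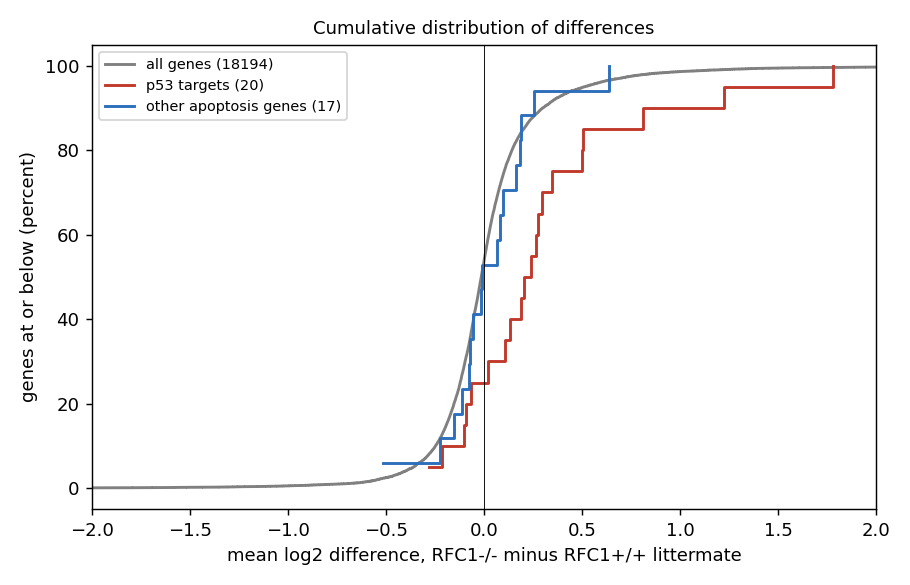
Percent of genes (y axis) at or below a given mean log2 difference (x axis, drawn from -2 to 2) for all 18194 genes, the 20 measured p53 targets and the 17 other apoptosis genes. The median is 0.22 for the p53 targets, -0.0093 for the other apoptosis genes and -0.015 for all genes, and the p53 curve ends in 3 steps at 0.81, 1.22 and 1.78, for Ccng1, Cdkn1a and Eda2r.

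Further genes of p53 signalling and apoptosis were taken from a separate list. Of 102 measured genes, 3 (2.94%) were higher and 4 (3.92%) lower, beside 3.67% and 1.65% of all genes, with 49 differences above 0 and 53 below. At an unadjusted p under 0.05, 7 of the 29 further p53 targets were higher and 2 lower, beside 10.4% and 8.05% of all genes. Among these 29, Ddb2, which recognises damaged bases, was 0.62 higher (SE 0.13, limma adjusted p = 0.0480) and Fbxw7, a subunit of a ubiquitin ligase, 0.47 lower on the log2 scale, at a difference of -0.47 (SE 0.10, limma adjusted p = 0.0479). Dram1, a lysosomal target of p53 in autophagy, differed by 0.96, 0.38 and 2.31 in litters 1, 2 and 3, with a mean of 1.21 that did not pass (limma adjusted p = 0.0912). Among 20 regulators and relatives of p53, Trp63, a p53 relative of surface epithelium, was lower, from 7.66, 7.49 and 7.32 in RFC1+/+ embryos to 6.79, 6.76 and 6.03 in RFC1-/- embryos. The Trp63 groups did not overlap, and the difference was -0.96 (SE 0.13, limma adjusted p = 0.0125). Ppp1r13b, which encodes a partner of p53 in apoptosis, was 0.83 higher (SE 0.11, limma adjusted p = 0.0123). Mdm4, the relative of Mdm2 that masks p53, differed by -0.02.

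Other inhibitors of the cell cycle included none called higher. Of 10 measured, Rb1, the retinoblastoma gene, was lower, with a difference of -0.56 (limma adjusted p = 0.0335). Gas1, a growth arrest gene of the cell surface, was lower too, with -0.75 (limma adjusted p = 0.0296). These 2 were 20% of the 10, beside 1.65% of all genes called lower and 3.67% called higher. At an unadjusted p under 0.05, 2 of the 10 were higher and 3 lower, beside 10.4% and 8.05% of all genes. Cdkn1b and Cdkn1c, which encode p27 and p57, differed by -0.18 and 0.49 (limma adjusted p = 0.421 and 0.111). The 14 further Bcl2 genes, 10 further caspases and apoptosome genes and 12 death receptors and adaptors did not pass in limma. At an unadjusted p under 0.05, 4, 0 and 1 of them were higher and 0, 1 and 3 lower, beside 10.4% and 8.05% of all genes. Birc3, an inhibitor of apoptosis, was 0.45 higher (limma adjusted p = 0.0496). The calls of Trp63 and Ppp1r13b held without any 1 litter, and the calls of Birc3 and Fbxw7 ended without any 1 of them. Those of Ddb2, Gas1 and Rb1 ended without litter 1 and without litter 2, and held without litter 3 (limma adjusted p = 0.00981, 0.00619 and 0.0492).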

How the data were processed

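Total RNA of each whole embryo was amplified from 100 ng, labelled and hybridized to an Affymetrix mouse genome array. The authors deposited log2 expression values, 1 per probe set and array, made with RMA (background correction, quantile normalization and median polish); no version is given in the sources used here. Quantile normalization gives the arrays a common distribution, so that only changes relative to other genes can be seen. Arrays give no read depth, and their number limits the precision. Genotype and litter are those of the labels. As the numbers mark shared litters, the litter entered as a block, although deviations of littermates from their group means correlated at 0.0138, -0.0293 and -0.196. Limma 3.58.1 in R 4.3.3 was used, with Benjamini-Hochberg adjustment, and was tested on simulated data. Symbols came from the platform annotation, in which 34958 probe sets had 1, 932 several and 9211 none. Through gene identifiers 34754 of them matched RefSeq and 0 symbols changed. The members and lists were chosen with earlier results of these data known. Full values are given for called genes and Mdm2, and other genes by role. Alternatives were no replicate block, each litter left out, an intensity trend, other probe set choices, a second quantile normalization, median centring, a filter on dim probe sets (mean under 5) and the 1.5-fold variation filter of the methods. Figures were drawn with Python 3.11.15 and matplotlib 3.10.9.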

Additional observations from a re-analysis of the deposited data

How the results depend on the processing

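With each litter left out in turn, between 2 and 5 members were called higher and between 0 and 1 lower. The number of calls over all 18194 genes changed too. Without litters 1, 2 and 3, 238, 523 and 867 genes were called higher and 118, 221 and 343 lower. Without litter 2, Trp53inp1 and Polk joined Cdkn1a, Ccng1 and Eda2r, and without litter 3 Bid did. Without the replicate block, 3 members were higher and 1 lower, and no member call changed, beside 748 and 408 of all 18194 genes. Cdkn1a and Eda2r were called under all 11 alternatives, with differences from 1.19 to 1.28 and from 1.62 to 2.04 (adjusted p up to 0.0159 and 0.00964 from limma). On its brightest probe set, Ccng1 was not called without litter 1 or with the variation filter (limma adjusted p = 0.0920 and 0.140), while another of its probe sets had a limma adjusted p of 0.0290 with that filter. With the filter 0 members were called lower, since Casp2 did not enter it, beside 99 of 2144 genes. With 3 litters, intervals of members not called had a median half-width of 0.25 before adjustment. The limit of a call was higher, as Bid was not called at 0.64 while Casp2 was at -0.51. In 2 members, Fas and Bak1, the mean level was under 5, where signal over background is not established.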

Other observations

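The paired p53 motif found before Cdkn1a and Ccng1, an exact 10-base match directly beside a match with at most 1 difference, lay in the RefSeq promoter windows of 29 genes, of which 12 were measured. Cdkn1a and Ccng1, whose sequences set the search, are 2 of the 12. Of the other 10, 1 was called higher in RFC1-/- embryos, beside 3.67% of all genes. It was Bco1, which encodes the enzyme that cleaves beta-carotene to retinal (difference 1.26, SE 0.20, limma adjusted p = 0.0180). Rps27l and Gtse1, which are known as p53 targets, differed by 0.00 and -0.02. Mthfd1, an enzyme that interconverts folate one-carbon units, differed by 0.14 (limma adjusted p = 0.566). The median of the 10 was 0.0080. These genes were picked after the sequences had been seen.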
